A study of Homo sapiens with 12 samples.

Results

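The subject is the parental Caki-1 line at baseline, described by the absolute level of its mRNAs and by where its chromatin carries H3K27ac. Caki-1 is an established human renal cell carcinoma line. H3K27ac is acetylation of lysine 27 of histone H3, a mark found at active promoters and enhancers. The members are the 4 samples that the labels give as wild-type Caki-1 with an RNA or an immunoprecipitated library, out of 12 samples in the series. They comprise 2 RNA libraries and 2 H3K27ac peak lists. The other samples are 4 of a cabozantinib-resistant Caki-1 derivative and 4 DNA inputs, and the inputs were not analysed here. The labels name no engineered allele and no drug for the parental cells, which grew in RPMI medium with 10% heat-inactivated serum. The resistant derivative, whose peak lists are used once below, was selected in McCoy's 5A medium with cabozantinib, an inhibitor of MET, AXL and the VEGF receptors, from 5 µM up to 20 µM over 2 months and was then kept in 10 µM. Both lines come from 1 tumour-derived line, and the labels do not say whether replicates came from separate cultures, so the spread given here may be technical.

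Clear cell renal carcinoma is thought to arise from proximal tubule epithelium, the segment that reabsorbs most filtered solutes through a brush border of transporters and peptidases. PAX8 is a transcription factor that marks the renal epithelial lineage and is usually kept in renal carcinoma. Loss of VHL, common in clear cell tumours, stabilises the hypoxia-inducible factors HIF1A and EPAS1, which drive genes for angiogenic ligands, glucose uptake and lipid storage. Receptor tyrosine kinases bind growth factors at the cell surface and are the targets of the drugs used in this disease.

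The 2 RNA libraries held 10605109 and 10584085 estimated counts over 20114 listed genes, so that a gene with 0 counts could still stand at up to 0.283 CPM, counts scaled to library size, in either library (3 counts, counting error only). Levels are given as deposited TPM, which scale reads by transcript length and library size and can be compared between genes. A gene was called expressed at a TPM of 1 or more in both libraries and silent at 0 counts in both. By these rules 11756 genes were expressed (58.4%), 4851 were silent (24.1%) and 3507 lay between. The mean of the pair was from 1 to 10 TPM for 4742 genes, from 10 to 100 for 6035, from 100 to 1000 for 1094 and 1000 or more for 146. Among the 7260 genes with a mean TPM of 10 or more, the libraries differed by a median of 1.06-fold, and by more than 2-fold in 14 genes with a value above 0 in both. Between 1 and 10 TPM the median difference was 1.15-fold, with a 95th percentile of 1.86-fold.

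The mRNA of parental Caki-1 was led by iron storage, the respiratory chain, the ribosome, the acute phase proteins SAA1 and SAA2, fibronectin and a neutrophil chemokine. FTH1, the heavy chain of the iron store ferritin, was the most abundant gene at 35329 and 36822 TPM. The light chain gene FTL stood at 7763 and 7749 TPM, so the level of FTH1 was 4.55 and 4.75 times that of FTL in the same library. Together they took 4.31% and 4.46% of all TPM. Both libraries gave this order, and each ferritin gene differed between them by less than the gap separating the chains.

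Of the 30 most abundant genes 10 were mitochondrially encoded, 9 encoded ribosomal proteins and 11 were others. MT-CO2 stood at 19240.5 and 19668 TPM and MT-CO1 at 16698 and 16101, both subunits of cytochrome c oxidase. MT-ND3 (12328 and 14508 TPM) and MT-ND4 (11108 and 11859 TPM), of complex I, and MT-CO3 (11706 and 11903 TPM) followed, and MT-ND4L, MT-ATP6, MT-ND2 and MT-ND1 lay between 5749 and 11352 TPM. All 13 mitochondrially encoded genes listed were expressed, down to MT-ND5 at 1624 and 1308 TPM. Together they took 11.9% and 12.5% of TPM but 5.08% and 5.2% of counts. MT-ATP8 ranked among the first 30 at 7762 and 8842 TPM on only 163 and 129 counts, whereas FN1 had 331539 and 319781 counts for 6942 and 6599 TPM. A TPM of a gene counted over a very short length therefore rests here on few counts.

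The 9 ribosomal protein genes among the first 30 were RPS27, RPL31, RPL13, RPL10, RPS2, RPS21, RPS18, RPL39 and RPS24, between 3791 and 10175 TPM. Among all genes 89 ribosomal protein symbols took 19.7% of TPM in each library, and 85 of them were expressed. EEF1A1, the elongation factor that brings aminoacyl-tRNA to the ribosome, stood at 10601 and 10266 TPM. The actin-binding thymosins TMSB10 (9262 and 9747 TPM) and TMSB4X (4425 and 4675 TPM) and the actin gene ACTG1 (6064 and 5916 TPM) were the cytoskeletal genes of this group. GAPDH, a glycolytic enzyme, stood at 8742 and 8457 TPM. Many of these genes have near-identical copies in the genome, so their counts can be split or shared between copies.

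**Figure D1:**
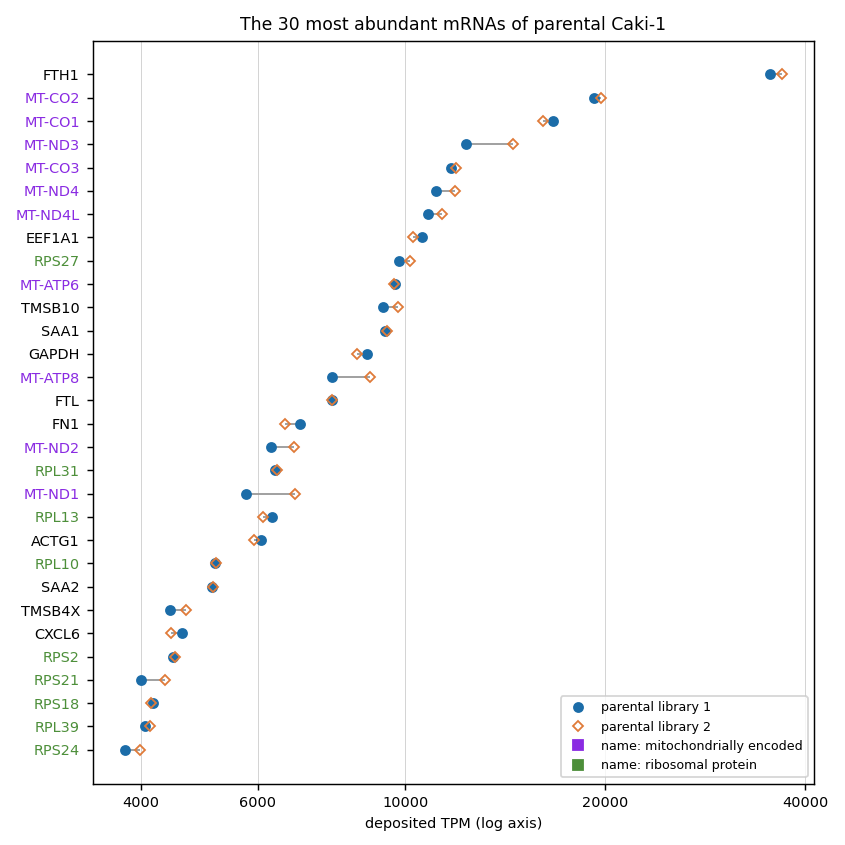
Deposited TPM (log axis) of the 30 most abundant genes, with filled circles for parental library 1 and open diamonds for parental library 2, and gene names coloured by class. FTH1 stands apart at 35329 and 36822 TPM, and the other genes run down from MT-CO2 to RPS24 with both libraries close together.

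The secreted products in this top group were serum amyloid A, fibronectin and CXCL6. SAA1, an acute phase apolipoprotein, stood at 9308 and 9389 TPM and SAA2 at 5114 and 5132 TPM, together 1.44% and 1.45% of TPM. Their sequences are nearly identical and their estimated counts were fractional, so the split between them, 1.82 and 1.83 to 1, is uncertain, while their sum is less so. SAA4, the constitutive member, stood at 80.3 and 86.7 TPM. FN1, the cell-adhesive glycoprotein of the interstitial matrix, had more counts than any other gene among the first 30. The 100 most abundant genes took 45.2% and 45.9% of all TPM, the first 10 took 14.7% and 15.2%, and the first 1000 took 75.03% and 75.39%.

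Among the CXC chemokines, 5 that attract neutrophils stood between 218 and 4613 TPM, and 3 ligands of the T cell receptor CXCR3 were silent. The family was looked up by symbol after CXCL6 was seen in the first 30, and its values are a description. CXCL6 stood at 4613 and 4444 TPM, CXCL1 at 3671 and 3767 TPM and IL8, now named CXCL8, at 1298 and 1320 TPM. CXCL5 followed at 408 and 428 TPM, CXCL2 at 218 and 221 TPM and CXCL3 at 10.9 and 11.3 TPM. All of these bind the receptors CXCR1 or CXCR2 on neutrophils, as does the product of PPBP, which stood at only 0.86 and 1.15 TPM on 3 and 4 counts. CXCL9, CXCL10 and CXCL11, which bind CXCR3, had 0 counts in both libraries, as did CXCL13, CXCL14 and CXCL17. Not every lymphocyte attractant was at 0: CXCL16, the ligand of CXCR6 on T cells, stood at 5.57 and 5.22 TPM on 75 and 72 counts, and CXCL12 had 5 and 0 counts. Of 16 CXC symbols 8 were expressed and 6 silent, against 58.4% of all genes expressed and 24.1% silent, so by count the family did not hold more expressed genes than the rest of the table. Of 28 CC chemokine symbols 4 were expressed and 22 silent. Among the CC chemokines CCL20 stood highest at 206 and 217 TPM, and CCL2 stood at 8.62 and 5.15 TPM.

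The upstream sequences of some of these genes are printed to show what the 5 that share a stretch before their start have in common, beside IL8 and 2 silent members. Each is the 120 bases before the RefSeq start site in GRCh38.p14, 5′ to 3′ on the gene's strand. Capitals mark matches to GGGNNTTTCC on either strand, one spelling of a kappa-B element. This spelling was chosen after the windows were seen, so which genes it takes was fixed by that choice and is a description of these letters. CXCL11, which was silent, holds gggaaattcc, also the shape of a kappa-B element, which this spelling leaves out.
CXCL6 (chr4:73836558-73836677, plus strand): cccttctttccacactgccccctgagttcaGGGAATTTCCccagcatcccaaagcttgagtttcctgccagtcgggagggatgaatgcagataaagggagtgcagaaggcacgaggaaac
CXCL5 (chr4:73998678-73998797, minus strand): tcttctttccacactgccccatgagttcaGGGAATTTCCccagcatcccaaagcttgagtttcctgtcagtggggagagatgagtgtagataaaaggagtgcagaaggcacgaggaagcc
CXCL1 (chr4:73869273-73869392, plus strand): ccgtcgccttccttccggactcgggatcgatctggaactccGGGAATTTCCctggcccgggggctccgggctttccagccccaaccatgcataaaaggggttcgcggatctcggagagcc
CXCL2 (chr4:74099196-74099315, minus strand): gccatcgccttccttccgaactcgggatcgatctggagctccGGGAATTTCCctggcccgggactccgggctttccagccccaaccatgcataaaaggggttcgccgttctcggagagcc
CXCL3 (chr4:74038690-74038809, minus strand): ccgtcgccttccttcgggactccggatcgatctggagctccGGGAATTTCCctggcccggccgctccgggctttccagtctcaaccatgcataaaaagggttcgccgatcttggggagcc
IL8 (chr4:73740449-73740568, plus strand): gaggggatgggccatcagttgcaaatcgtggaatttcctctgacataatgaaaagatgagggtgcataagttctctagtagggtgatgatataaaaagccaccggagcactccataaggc
CXCL10 (chr4:76023498-76023617, minus strand): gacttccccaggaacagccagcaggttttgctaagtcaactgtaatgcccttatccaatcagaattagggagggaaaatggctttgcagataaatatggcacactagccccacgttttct
CXCL11 (chr4:76036071-76036190, minus strand): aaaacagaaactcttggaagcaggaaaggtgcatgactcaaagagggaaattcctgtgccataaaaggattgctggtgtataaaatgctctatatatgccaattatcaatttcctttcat

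Of the 16 CXC symbols 14 matched a RefSeq window of 300 bases (250 before to 50 after the start), all but CXCL16 and PF4. The motif was found in 5 of these 14 windows and in 1.91% of all 34943 windows. The 5 were CXCL6, CXCL1, CXCL5, CXCL2 and CXCL3, where the match began 90, 79, 91, 78 and 79 bases before the start. IL8, the third highest member, had no match to this spelling, but its printed sequence holds tggaatttcc, which differs from it only in the first letter. The letters TATAAA stood 31 bases before the start in IL8, and also in PPBP (31), CXCL11 (42), CXCL13 (181) and CXCL9 (191), the last 3 of them silent, and 11.6% of all windows hold these letters on either strand. The 5 genes with the kappa-B spelling are not separate cases, since their windows are partly copies of each other. Aligned on the match without gaps over 97 bases, CXCL6 and CXCL5 were 91.8% identical, CXCL1 and CXCL3 90.7% and CXCL1 and CXCL2 69.1%, while CXCL6 and CXCL1 were 36.1% identical. CXCL1 and CXCL3, though close in these letters, stood at 3671 and 10.9 TPM in library 1.

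Other inflammatory genes were also high, and were likewise looked up by symbol. IL6 stood at 326 and 349 TPM, IL18 at 253 and 258 TPM and IL32 at 156 and 151 TPM. Of 39 interleukin symbols 11 were expressed and 22 silent, against 58.4% and 24.1% of all genes. C3, the central complement component, stood at 1299 and 1255 TPM, and CFB, which forms its alternative pathway convertase, at 82.1 and 98.4 TPM. C1R (192 and 185 TPM) and C1S (95.3 and 93.6 TPM), the proteases of the first complement component, were expressed too. Other components were under 1 TPM, with C4A at 0.3 and 0.87, C4B at 0.18 and 0, C2 at 0 and 0.66 and C5 at 0.38 and 0.49. Of 14 complement symbols 10 were expressed and 0 silent, against the same shares of all genes. CD59, which protects the cell from lysis by complement, stood at 405 and 403 TPM. The receptors for such signals are described further on.

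Some renal transcription factors and brush border genes were expressed, while most segment-defining transporters were silent or near 0. Of 31 renal epithelial transcription factors 14 were expressed (45.2%, against 58.4% of all genes) and 8 were silent. PAX8 stood at 210 and 205 TPM. TFE3 (47.1 and 48.4 TPM), a regulator of lysosomes, POU3F3 (19.1 and 17.8 TPM), a factor of the developing nephron, and TFAP2A (17.6 and 18.1 TPM) were lower. The silent members were PAX2, HNF4A, WT1, EMX1, EMX2, IRX1, IRX2 and TFAP2B. Of these kidney factors PAX8 was thus expressed, and PAX2 and HNF4A were not.

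Of 36 proximal tubule markers 13 were expressed (36.1%, against 58.4% of all genes) and 12 silent. The highest were markers of injured or brush border epithelium. HAVCR1, the injury marker also known as KIM-1, stood at 118 and 106 TPM, and VCAM1, an adhesion molecule of injured tubule cells and of activated endothelium, at 95.1 and 97.9 TPM. The brush border peptidases ANPEP (56.9 and 57.0 TPM), GGT1 (56.5 and 54.7 TPM) and DPP4 (20.1 and 21.1 TPM) followed. GGT1 belongs to a family of near-identical copies, and its level is uncertain. MME, another peptidase, stood at 9.68 and 9.92 TPM, the amino acid transporter subunit SLC3A1 at 7.97 and 8.82 TPM and the glucose transporter SLC5A2, known as SGLT2, at 6.65 and 7.1 TPM. The silent members included DPEP1, LRP2, PCK1, SLC13A1, SLC13A3, SLC22A11, SLC22A12, SLC22A6, SLC22A8, SLC5A1 and SLC7A9. Among these are the endocytic receptor LRP2, the organic anion transporters SLC22A6 and SLC22A8, and the gluconeogenic enzyme PCK1. CUBN, which pairs with LRP2, had 19 and 15 counts and AQP1, the tubule water channel, 0 and 2.

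The other segments were nearly empty. Expressed were 20% of loop of Henle and distal tubule, 16.7% of collecting duct and 30% of podocyte markers, against 58.4% of all genes. Of 15 markers of the loop of Henle and distal tubule 3 were expressed, WNK4 at 7.98 and 6.63 TPM, CLDN16 at 1.49 and 1.14 TPM and EGF at 1.16 and 1.3 TPM. CLDN10 and SLC12A3, the thiazide-sensitive cotransporter, stood at 0.26 and 0.56 TPM and at 0.21 and 0.09 TPM. The 7 silent ones were CLDN19, KCNJ1, KLK1, PVALB, SLC12A1, TRPV5 and UMOD. Of 18 collecting duct markers 3 were expressed and 8 silent. AVPR2, the vasopressin receptor, stood at 4.99 and 3.68 TPM, the proton pump subunit ATP6V0A4 at 3.25 and 3.54 TPM and the sodium channel subunit SCNN1A at 3.23 and 3.07 TPM. AQP4 had 3 and 12 counts and ATP6V1B1 3 and 1. AQP2, ELF5, FOXI1, KIT, RHCG, SCNN1B, SCNN1G and SLC4A1 were silent. Of 10 podocyte markers SYNPO (16.3 and 15.1 TPM), PTPRO (2.33 and 2 TPM) and PLA2R1 (1.52 and 1.11 TPM) were expressed, PODXL stood at 0.64 and 0.46 TPM, and 4 were silent, CLIC5 and NPHS1 among them. In these bulk libraries of 1 line, a low level in all cells and a higher level in a few cells cannot be told apart.

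**Figure D2:**
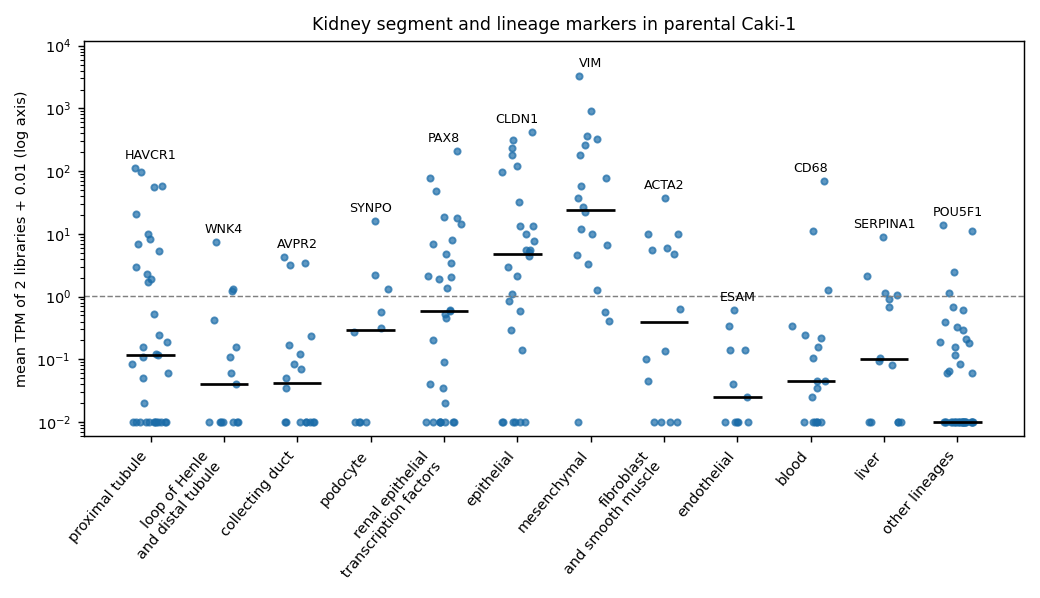
Mean TPM of the pair plus 0.01 (log axis) for every marker of 4 nephron segments, renal transcription factors and other cell types, 1 dot per gene, with a black bar at the list's median and a dashed line at 1 TPM. Mesenchymal and epithelial markers have the highest medians (24.4 and 4.79 TPM), and the lists led by AVPR2, WNK4, ESAM and SERPINA1 hold no gene above 10.59 TPM in either library.

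Simple-epithelium keratins and vimentin were expressed side by side, with E-cadherin near 0. Of 28 epithelial markers 18 were expressed (64.3%, near the 58.4% of all genes), led by the tight junction gene CLDN1 at 421 and 423 TPM. The simple-epithelium keratins KRT8 (321 and 308 TPM), KRT18 (233 and 228 TPM) and KRT19 (188 and 176 TPM) followed, then JUP, a plaque protein of adherens junctions and desmosomes, at 122 and 119 TPM. CDH1, which encodes E-cadherin, stood at 0.94 and 0.71 TPM on 35 and 27 counts, and EPCAM at 2.36 and 1.95 TPM. CLDN7, KRT14, KRT20, KRT5, OVOL1 and OVOL2 were silent. The splicing regulators of epithelia ESRP1 and ESRP2 stood at 0.69 and 0.45 TPM and at 0.29 and 0.28 TPM.

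Of 20 mesenchymal markers 17 were expressed (85%, against 58.4% of all genes) and 1, THY1, was silent. VIM, the intermediate filament of mesenchymal cells that renal carcinoma often carries, stood at 3259 and 3225 TPM, which was 10.2 and 10.5 times the level of KRT8. TPM1 (919 and 917 TPM) and TPM2 (325 and 330 TPM), tropomyosins, CD44 (384 and 344 TPM), a hyaluronan receptor, and MYL9 (252 and 266 TPM), a myosin light chain, came next. CDH2, which encodes N-cadherin, stood at 26.5 and 26.7 TPM, 28.2 and 37.6 times the level of CDH1. Among the repressors of CDH1, TWIST1 stood at 13.2 and 10.2 TPM, ZEB2 at 9.9 and 9.65, SNAI1 at 6.96 and 6.52, ZEB1 at 4.49 and 4.69 and SNAI2 at 1.37 and 1.17.

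Markers of other cell types were mostly at or near 0, and each list had a smaller share expressed than the 58.4% of all genes. None of 11 endothelial markers was expressed (ESAM stood at 0.32 and 0.87 TPM and SOX17 at 0.36 and 0.3 TPM), and CDH5, CLDN5, EMCN, ERG and TEK were silent. Of 18 blood markers CD68, a lysosomal protein not limited to macrophages, stood at 68.4 and 70.3 TPM and RUNX1 at 11.03 and 11.4 TPM. CD14 stood at 0.62 and 1.91 TPM and SPI1 at 0.33 in each. The silent ones were CD3E, CD4, GATA1, HBB, LYZ and MS4A1, and PTPRC, the pan-leukocyte marker CD45, had 0 and 1 count. Of 14 fibroblast and smooth muscle markers 6 were expressed, ACTA2 at 37.8 and 38.0 TPM, DCN at 9.23 and 10.98 TPM, RGS5 at 8.57 and 11.3 TPM, PDGFRB at 6.35 and 5.45 TPM, COL1A1 at 6.12 and 5.03 TPM and LUM at 3.54 and 6.11 TPM. DES, FAP, MYH11 and PDGFRA were silent. Of 14 liver markers SERPINA1 (10.59 and 7.19 TPM) and FOXA1 (2.78 and 1.51 TPM) were expressed, CPS1 stood at 0.9 and 1.32 TPM, FGB at 0.51 and 1.58 TPM and ALB at 1.51 and 0.31 TPM, and APOB, APOC3, CYP3A4, TF and TTR were silent. Of 41 markers of further lineages 4 were expressed and 23 silent: GATA6 stood at 11.8 and 10.2 TPM and VIL1 at 1.11 and 1.13 TPM, with UPK2 next at 0.19 and 1.17 TPM. POU5F1, at 13.4 and 14.2 TPM, has expressed processed copies of near-identical sequence, and its level is uncertain.

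**Figure D3:**
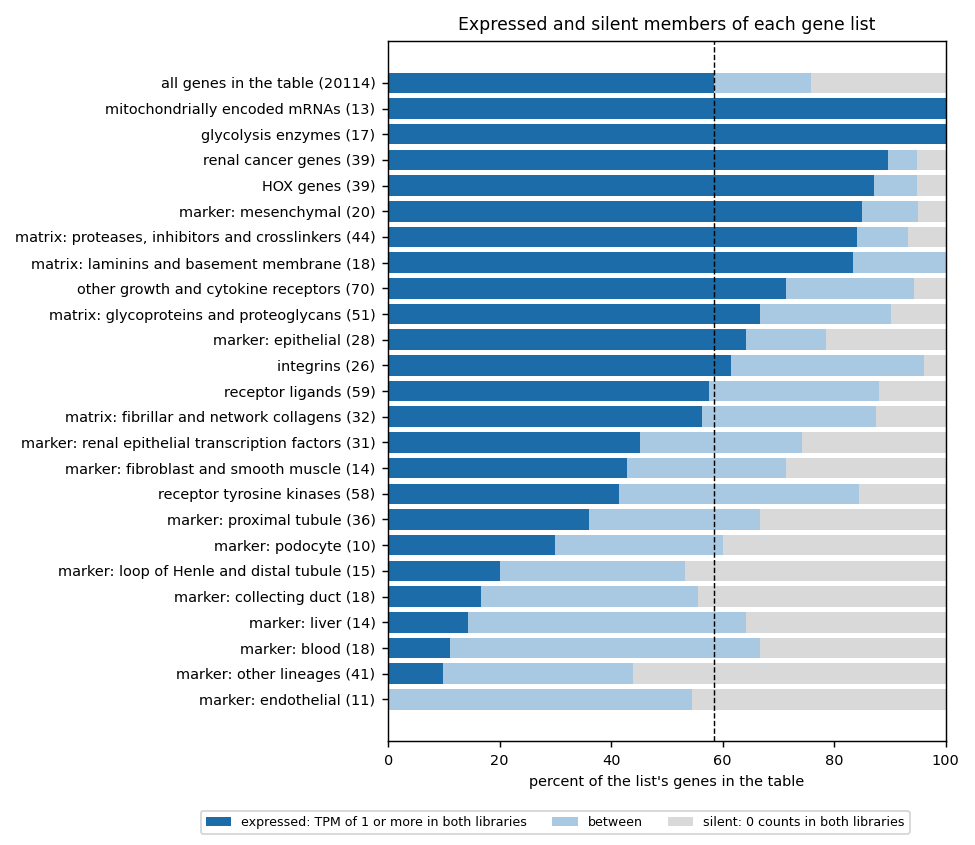
Percent of each list's genes in the table (number in brackets) that were expressed (dark blue), silent (grey) or between (light blue) in the parental pair, with a dashed line at the 58.4% of all genes expressed. The lists run from 100% of glycolysis enzymes to 0% of endothelial markers.

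Receptor tyrosine kinases were led by EPHB2 and MET, and the VEGF receptors were near 0. Of 58 kinases 24 were expressed (41.4%, against 58.4% of all genes), 25 lay between and 9 were silent. EPHB2, a receptor for ephrin-B ligands, stood at 178 and 168 TPM. MET, the receptor for HGF, stood at 113 and 119 TPM, and AXL, the receptor for GAS6, at 65.7 and 65.2 TPM. MET was thus at 1.73 and 1.82 times the level of AXL, and EPHB2 at 1.57 and 1.41 times that of MET. For the same gene at 10 TPM or more, the 95th percentile of the difference between the libraries was 1.27-fold. That spread does not measure biases between different genes, which can repeat in both libraries. EPHA2, an ephrin-A receptor, stood at 64.6 and 63.5 TPM and did not differ from AXL beyond the 1.06-fold median spread between the libraries. The collagen receptor DDR1 stood at 57.4 TPM in each library.

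Next were the WNT-binding pseudokinases RYK (49.2 and 57.7 TPM) and PTK7 (52.6 and 48.0 TPM), whose order differed between the libraries. ERBB2 stood at 39.2 and 34.5 TPM and EGFR, the receptor for EGF-like ligands, at 29.3 and 28.2 TPM. Of the FGF receptors FGFR4 stood at 29.4 and 30.9 TPM, FGFR1 at 26.9 and 26.7 TPM and FGFR3 at 1.47 and 1.43 TPM, while FGFR2 had 13 and 7 counts. EPHB4, another ephrin receptor, stood at 19.8 and 19.3 TPM. The remaining expressed kinases lay under 10 TPM. Among these were IGF1R, which binds insulin-like growth factors (8.27 and 8.48 TPM), MERTK (6.19 and 8.69 TPM) and TYRO3 (5.12 and 4.64 TPM), which are the relatives of AXL, and PDGFRB (6.35 and 5.45 TPM). LMTK2 (6.69 and 6.14 TPM), ERBB3 (4.57 and 3.49 TPM), EPHA4 (2.78 and 2.02 TPM), STYK1 (2.1 and 2.2 TPM), ROR1 (1.45 and 1.63 TPM), LMTK3 (1.13 and 1.4 TPM) and AATK (1.16 and 1.06 TPM) closed the list. MET exceeded its nearest lower neighbour in both libraries, whereas from DDR1 to PTK7 the order depended on the library.

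The silent kinases were ALK, EPHA8, FLT3, KIT, LTK, NTRK2, PDGFRA, ROR2 and TEK. Of the VEGF receptors KDR had 2 and 1 counts, FLT1 1 and 0, and FLT4 2 and 0, and RET, another cabozantinib target, had 0 and 1. INSR stood at 0.65 and 1.08 TPM. At this depth these kinases were at or under the limit that a count of 0 allows, apart from INSR with 37 and 32 counts.

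**Figure D4:**
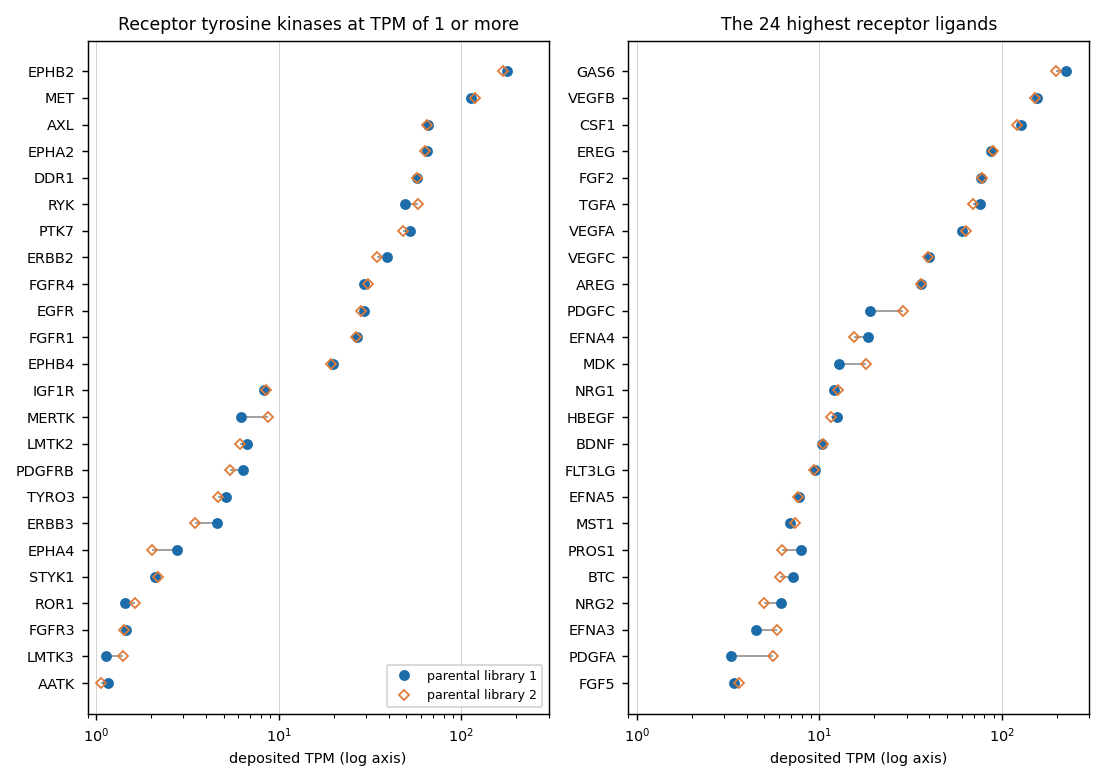
Deposited TPM (log axis) of the 24 expressed receptor tyrosine kinases (left) and the 24 highest receptor ligands (right), with filled circles for parental library 1 and open diamonds for library 2. EPHB2 and MET stand above 100 TPM on the left and GAS6, VEGFB and CSF1 on the right, and the pairs lie farthest apart among the low genes.

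Ligand genes for several of these receptors were expressed in the same libraries. Of 59 ligands 34 were expressed (57.6%, near the 58.4% of all genes) and 7 silent. GAS6, the ligand of AXL, was the highest at 224 and 197 TPM, which was 3.41 and 3.03 times the level of AXL. HGF, the ligand of MET, had 5 and 3 counts, so for MET the expressed gene was the receptor. VEGFB (156 and 151 TPM), VEGFA (60.4 and 63.7 TPM) and VEGFC (39.96 and 39.1 TPM), which signal through the VEGF receptors on endothelium, were expressed while the receptors were not. The EGFR ligands EREG (87.2 and 89.6 TPM), TGFA (75.3 and 69.5 TPM), AREG (36 and 36.0 TPM) and HBEGF (12.5 and 11.6 TPM) were all expressed, with EGF itself at 1.16 and 1.3 TPM. CSF1, a macrophage growth factor, stood at 127 and 121 TPM with its receptor CSF1R on 6 and 3 counts. FGF2 stood at 76.5 and 77.5 TPM. FGF10, FGF19, FGF9, IGF1, INS and NTF3 were among the silent ligands.

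Of 70 other growth and cytokine receptors 50 were expressed (71.4%, against 58.4% of all genes). The 5 highest were TNFRSF12A (644 and 668 TPM), the receptor for TWEAK, LTBR (281 and 278 TPM), the lymphotoxin receptor, TNFRSF1A (124 and 118 TPM), the main TNF receptor, TNFRSF10B (105 and 103 TPM), a TRAIL receptor, and PLXNB2 (104 and 98.0 TPM), a semaphorin receptor. The neuropilins NRP2 (74.9 and 65.3 TPM) and NRP1 (40.3 and 43.1 TPM), which bind VEGF ligands, were expressed, unlike the VEGF receptor kinases. IL6ST, the signalling chain for IL6, stood at 17.9 and 19.4 TPM and IL6R at 3.41 and 3.06 TPM. AMHR2, AVPR1A, FZD10 and PTH1R were silent.

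The matrix mRNAs of parental Caki-1 were rich in fibronectin and basement membrane components and poor in fibrillar collagen. Of 51 matrix glycoproteins and proteoglycans 34 were expressed (66.7%, against 58.4% of all genes). After FN1 the highest were IGFBP7 (3685 and 3549 TPM), a secreted IGF-binding protein relative, SPP1 (780 and 769 TPM), which is osteopontin, IGFBP3 (748 and 726 TPM) and TGFBI (703 and 676 TPM). ACAN, ELN, MFAP2, MGP and VTN were silent.

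Of 32 collagen genes 18 were expressed (56.2%, near the 58.4% of all genes). The highest were COL4A2 (215 and 201 TPM), a chain of the basement membrane network, COL6A2 (209 and 194 TPM), a chain of microfibrils, and COL18A1 (187 and 178 TPM), whose end fragment is endostatin. COL8A1 (96.2 and 92.5 TPM) and COL16A1 (85.6 and 89.5 TPM) completed the first 5. Chains that assemble together were not at equal levels: COL4A2 stood at 3.44 and 3.38 times COL4A1 (62.4 and 59.3 TPM), and COL6A1 (87.5 and 84.9 TPM) at 22.5 and 27.8 times COL6A3. COL1A1 stood at 6.12 and 5.03 TPM while its partner COL1A2 had 2 and 1 counts and COL3A1 5 and 2. COL10A1, COL2A1, COL5A3 and COL9A1 were silent.

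Of 18 laminin and basement membrane genes 15 were expressed (83.3%, against 58.4% of all genes) and 0 silent. AGRN (231 and 218 TPM) and HSPG2 (77.6 and 71.8 TPM), the heparan sulfate proteoglycans agrin and perlecan, stood beside LAMB1 (222 and 217 TPM), LAMC1 (98.97 and 95.5 TPM) and LAMB3 (49.6 and 55.6 TPM). The alpha chains, which decide the laminin type together with these, were lower, with LAMA4 at 37.6 and 39.3 TPM, LAMA3 at 25.6 and 23.5, LAMA1 at 23 and 20.3 and LAMA5 at 15.5 and 13.9.

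Of 44 proteases, inhibitors and crosslinkers 37 were expressed (84.1%, against 58.4% of all genes). CTSD (1466 and 1443 TPM) and CTSB (1043 and 989 TPM), lysosomal cathepsins, stood with PLAU (540 and 515 TPM), the urokinase that activates plasminogen. TIMP1, a metalloproteinase inhibitor, stood at 427 and 459 TPM. MMP14, a membrane-bound collagenase, stood at 82.7 and 78.3 TPM and MMP2, the gelatinase it activates, at 17.5 and 21.1 TPM. MMP10, MMP13 and TIMP3 were silent.

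Integrins, which bind this matrix, were led by the fibronectin and laminin receptor chains. Of 26 genes 16 were expressed (61.5%, near the 58.4% of all genes) and 1, ITGAD, was silent. ITGB1, the common beta chain, stood at 830 and 840.0 TPM and ITGA3, its laminin-binding partner, at 463 and 438 TPM. ITGB5 (116 and 108 TPM), ITGAV (70.6 and 69.2 TPM) and ITGA5 (72.5 and 66.8 TPM), chains of vitronectin and fibronectin receptors, followed. ITGA6, the other laminin-binding alpha chain of epithelia, was at 2.44 and 2.32 TPM, so that ITGA3 was 190 and 189 times higher in the same library.

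Genes tied to renal cancer were mostly expressed, 35 of 39 (89.7%, against 58.4% of all genes). VHL itself stood at 14.7 and 14.8 TPM. HIF1A stood at 159 and 162 TPM and EPAS1, which encodes HIF-2 alpha, at 104 and 98.5 TPM, a ratio of 1.52 and 1.64. PLIN2, a coat protein of lipid droplets, stood at 366 and 370 TPM, CDKN1A, the p21 cell cycle inhibitor, at 306 and 293 TPM, ADM, the peptide adrenomedullin, at 151 and 161 TPM and TCEB1, the elongin C partner of VHL, at 159 and 151 TPM. The hypoxia marker CA9 had 0 and 2 counts and EGLN3 10 and 18, whereas ANGPTL4 stood at 150 and 149 TPM and SLC2A1, the glucose transporter GLUT1, at 76.4 and 73.4 TPM. The only silent members were CDKN2A and CDKN2B, neighbouring cell cycle inhibitor genes, while the nearby MTAP stood at 18.1 and 13.8 TPM. RNA levels alone do not tell a deleted gene from an unexpressed one.

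All 17 glycolysis enzymes were expressed, with a median of 793 TPM against 3.53 TPM over all genes. After GAPDH came LDHA (3229 and 3098 TPM), ALDOA (2621 and 2555 TPM), ENO1 (2457 and 2364 TPM) and PKM (1909 and 1842 TPM). LDHA, the lactate dehydrogenase chain that favours lactate production, stood at 2.66 and 2.53 times LDHB. HK1 (95.6 and 88.8 TPM) was the higher of the hexokinases, with HK2 at 12.3 and 9.88 TPM.

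HOX genes, which record position along the body axis, were widely expressed, 34 of 39 (87.2%, against 58.4% of all genes), from all 4 clusters. The A cluster was expressed in full, 11 of 11, and its TPM summed to 293 and 271. The B cluster had 9 of 10 expressed and summed to 177 and 179, and the C and D clusters had 7 of 9 each and summed to 38.2 and 39.3 and to 38.7 and 35.3. HOXA3 (94.8 and 83.2 TPM), HOXA10 (76.4 and 73.3 TPM), HOXA9 (50.5 and 41.2 TPM), HOXB9 (40.6 and 38.2 TPM) and HOXB7 (31.1 and 29.1 TPM) were the highest. HOXB1 and HOXC12 were silent, and HOXD12 and HOXD13 had at most 3 counts in a library.

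A few genes differed between the 2 parental libraries far beyond the usual spread, 4 of them in TPM much more than in counts. CDKL1 stood at 91.3 and 5.81 TPM, a 15.7-fold difference, on 79 and 68 counts. EXOC6 stood at 3.43 and 46.1 TPM (13.5-fold) on 91 and 112 counts, and MAP3K4 at 5.43 and 59.7 TPM (10.99-fold) on 223 and 254 counts. BLOC1S3 likewise stood at 18.6 and 8.45 TPM on 168 and 147 counts. In these 4 genes the effective length behind the TPM differed between the libraries, and neither TPM is a firm level. FAM156A, which has a near-identical copy, differed even more in counts (335 and 14.1) than in TPM (8.35-fold). AL035252.1, HIST2H3PS2, AL049829.1, AC103801.2 and RP11-599B13.6 differed by 2.45-fold to 5.37-fold in TPM, and in the same direction in counts, on at most 38 counts in a library. AC136297.1 was listed at 0 and 103 TPM on 0 and 3 counts, and PIGY at 69.8 and 0 TPM on 2.15 and 0 counts.

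H3K27ac was given as 1 peak list per library, in hg19, with a score per peak that is the authors' own and has no stated unit. The lists held 54810 and 57975 peaks with median widths of 674 and 924 bp, covering 56.3 and 84.9 Mb. Of list 1 72.4% of peaks (39677) overlapped list 2, and of list 2 56.3% (32628) overlapped list 1. Peaks that overlapped by at least 1 bp were merged into 71700 regions. Of these 31220 held a peak from each list, 15133 only from list 1 and 25347 only from list 2. The shared regions covered 71.7 of the 99.3 Mb of all regions, and 41.9 Mb lay under a peak in both lists. Regions in 1 list only had low scores, with medians of 4.35 and 4.45, against median best scores of 9.61 and 9.95 in shared regions.

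Shared regions had a median width of 1672 bp, with quartiles of 1062 and 2720 bp and a 99th percentile of 10966 bp. They numbered 2308 at 5000 bp or more, 419 at 10000 bp or more and 64 at 20000 bp or more. The strength of a region was taken as the weaker of its best scores in the lists, with a median of 7.56 and a 99th percentile of 51.4. Over the shared regions the best scores of the lists correlated with a Spearman rho of 0.68, and strength and width with a rho of 0.56. These are descriptions over regions of the same lists, which share depth and peak calling. Chromosome 1 held the most shared regions, 3344 (10.7%), and chromosome 21 the fewest, 208. The broadest region of a chromosome ranged from 10618 bp on chromosome 21 to 43637 bp on chromosome 15.

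The strongest shared region was narrow. It lay at chr3:73159733-73160198 in hg19, 466 bp wide, with best scores of 578 and 297, and its width was at the 0.849th percentile of shared regions. The region after it, chr17:41464737-41467151 (2415 bp), scored 464 and 284. The third, chr1:144532779-144540129 (7351 bp), scored 241 and 181. The fourth fell to 132 in its weaker list. Of the 10 strongest regions 7 were on chromosome 1, against 10.7% of all shared regions, but of the 25 strongest 9 were.

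The other 6 on chromosome 1 were chr1:145086377-145092948 (132 and 163), chr1:17230190-17231733 (129 and 187), chr1:147931074-147931711 (126 and 140.2), chr1:206271508-206295086 (150 and 112), chr1:153605928-153607884 (119 and 112) and chr1:143742656-143745741 (148 and 110). The remaining region was chr11:67136777-67147681 (115 and 113). Widths in this group ran from 466 bp to 23579 bp. The ranking depended on the list: 4 of these 10 remained among the first 10 by the scores of list 1 alone and 6 by those of list 2 alone. What the annotation holds at these positions was not analysed here, since no hg19 annotation was used. The inputs were not analysed and no sites of known high background were filtered out. Whether the highest scores reflect acetylation or background was therefore not tested.

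The broadest shared region was also strong. It spanned chr15:96860485-96904121, 43637 bp, as 2 peaks in list 1 and 1 peak in list 2, with best scores of 152 and 106, twelfth by strength. It was the only one of the 25 broadest that was also among the 25 strongest. The next were chr11:122031440-122074417 (42978 bp, scores 48.2 and 50.9), chr6:72100744-72143300 (42557 bp, 93.2 and 42.0), chr17:57897412-57936095 (38684 bp, 123 and 56.9) and chr7:130577408-130614288 (36881 bp, 61.9 and 47.0). Then came chr4:187599919-187636243 (36325 bp, 29.5 and 23.6), chr3:101871786-101906951 (35166 bp, 47.8 and 47.7), chr7:116323184-116358099 (34916 bp, 40.2 and 34.1), chr3:98590627-98625066 (34440 bp, 98.2 and 39.6) and chr12:113653185-113687215 (34031 bp, 74.3 and 67.6). Chromosomes 3 and 7 each held 5 of the 25 broadest regions, against 6.37% and 5.53% of all shared regions. Those on chromosome 3 are not all separate cases. For example, chr3:98590627-98625066 lies near chr3:98677328-98705846, and chr3:101803185-101835768 near chr3:101871786-101906951. Breadth was drawn differently by the lists: of the 100 broadest regions 59 were 1 unbroken peak in list 2 and 6 in list 1.

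**Figure D5:**
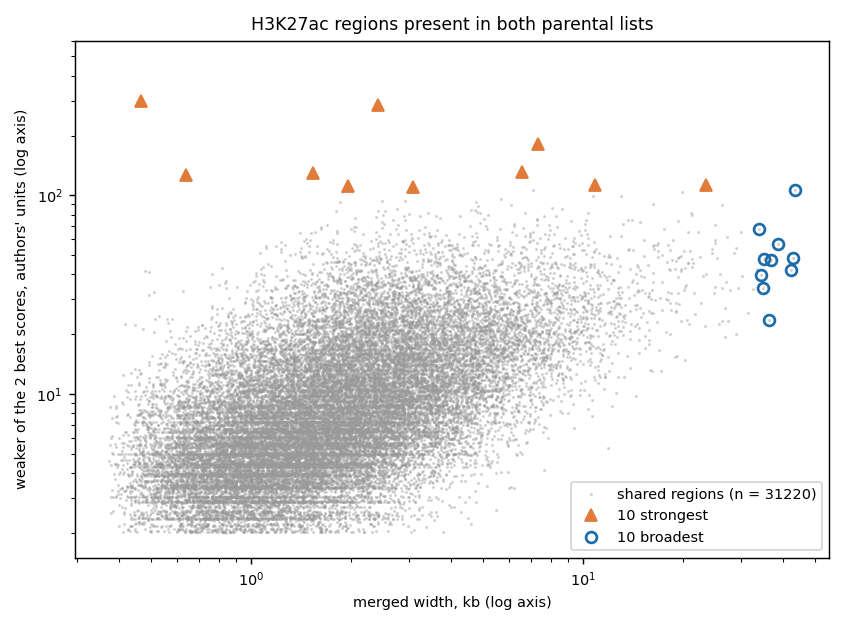
Merged width in kb against the weaker of the best scores in the 2 lists (both log axes) for the 31220 shared regions, with triangles for the 10 strongest and open circles for the 10 broadest. The strongest regions spread from 466 bp to 23579 bp in width, and the broadest lie at 34031 bp and above with scores from 23.6 to 106.

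The strongest and the broadest regions were mostly different, although strength and width rose together over all shared regions (Spearman rho of 0.56). Of the 100 strongest and the 100 broadest, 10 regions were in both groups. Each group of 100 is a small part of the 31220 shared regions. This overlap therefore does not show that strength and breadth were unrelated. The 100 strongest had a median width of 4856 bp and the 100 broadest a median weaker score of 41.9, each above the median of all shared regions. When peaks within 12.5 kb were stitched, 17214 shared domains remained, and the 10 with the most sequence under a peak in both lists spanned 244184 bp to 392657 bp. One of these, chr17:57694791-57938974, held 64 and 47 peaks and contains the fourth broadest region, and chr3:171747025-172113499 held 113 and 98.

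The parental regions were then set against the lists of the resistant derivative to see how far the baseline map depends on the line. A peak in both resistant lists was found in 20677 of the 31220 shared regions, 66.2%. All 100 of the strongest and all 100 of the broadest had one. By quartile of strength, from the weakest to the strongest, the share was 36.5%, 53.7%, 78.7% and 95.9%. By quartile of width, from the narrowest, it was 43.7%, 59.4%, 73.4% and 88.5%. An overlap of 1 bp with each resistant list was enough, a rule that wider regions meet more easily, so the rise with width is partly set by it. Of the 40480 regions in 1 parental list only, 14.0% had a peak in both resistant lists. Over the peaks of parental list 1 alone the share was 48.8%, and over those of list 2 alone 41.7%. These shares describe lists that each end at a score just above 2, and they are no test of a change between the lines.

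Even where they recurred, the broad parental regions were covered unequally by the resistant lists. The broadest, on chromosome 15, was covered for 84.7% and 99.7% of its length. The chromosome 6 region at 72100744 was covered for 14.8% and 77.8%, and the chromosome 4 region at 187599919 for 21.2% and 55.9%. In each of the 10 broadest regions resistant list 1 covered less than resistant list 2. The difference was not particular to broad regions: of all shared regions 69.2% had a peak in resistant list 1 and 85.9% in resistant list 2.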

How the data were processed

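RNA was measured in 2 parental libraries and H3K27ac in 2 others, all read as 150-bp pairs. Per the labels, 1% formaldehyde was applied for 10 min before immunoprecipitation. Among the tools and builds in the submitters' processing notes are STAR, RSEM, DESeq2 (1.40.2), GRCh38 and hg19, with no role given. The authors deposited a table of TPM and a table of RSEM estimated counts, each for 20114 symbols. In the parental pair 3.73% of genes had a fractional estimated count. Each deposited peak list gives positions and a score above 2 per peak. How peaks were called, whether inputs entered, and what the score measures are not stated by the labels. DESeq2 was not run.

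Groups came from sample titles. Levels were read as deposited, with Python 3.11.15 and pandas 2.3.3, and no test was run, since 1 line was described. The libraries differed on average by more than sampling noise (mean chi-square of 1.93 per gene over 13140 genes with 10 or more counts) and were kept as 2. A few genes can raise such a mean, so it does not describe the typical gene. The 28 symbols turned into dates stayed in totals and are not named. The 24 gene lists hold 724 entries, 722 of them in the table and 5 under an older symbol. The rule for named genes took the 30 highest, the 5 highest of each list, silent members where 15 or fewer, all receptor tyrosine kinases at 1 TPM, and the 5 largest ratios either way between libraries at 10 TPM. Some genes that this rule took are not reported here. Regions named were the 10 strongest and 10 broadest. Members and lists were chosen with earlier results of these data known, and families looked up by symbol after seeing levels. RefSeq windows (GRCh38.p14) matched 75.1% of genes, under the share needed for a check over all genes, so none was made. Merging and the chi-square statistic were tested on simulated data. Alternatives were other TPM and count minima, TPM without mitochondrial genes, leaving out each library, other overlaps, the upper scores and merge distances.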

Additional observations from a re-analysis of the deposited data

How the results depend on the processing

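No paired analysis was possible because the results come from no test. The number of expressed genes, 11756, ranged from 9014 (TPM of 5 or more) to 12432 (TPM of 0.5 or more), and that of silent genes, 4851, up to 5539, all within 1.5 times. The share of TPM in the 100 most abundant genes, 45.6% on average, was 40.4% without mitochondrially encoded genes and 27.7% of counts not per length. Without mitochondrially encoded genes each of 163 named genes was 1.14 times higher, past the spread of the pair in 124. This factor is set by the share of TPM taken out and is the same for every gene, so their order does not depend on it. Of 120 list counts under alternatives 106 stayed within 1.5 times. At a TPM of 5 or more the counts were 20 for HOX genes, 9 for integrins, 0 for collecting duct, 1 for liver, 1 for loop of Henle and distal tubule, 2 for other lineages, 1 for podocyte, 8 for proximal tubule, 8 for renal transcription factors and 20 for receptor ligands. Liver markers numbered 5 at a TPM of 0.5 or more, 4 at 10 or more counts and 3 to 4 with a library left out, and podocyte markers 5 at 10 or more counts.

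Shared regions numbered 17299 with an overlap of 50% of each peak, 17949 in the upper part of scores (at or above each list's median) and 17214 when stitched, and a list alone held 54810 to 57975 peaks. Their median width was 834 bp for the intersection, 5115 bp when stitched and 674 to 924 bp in a list alone. Ranked in a list alone, 4 to 6 of the 10 strongest regions remained, and by the mean score 7 did. Of the 10 broadest, 9 remained by the width in both lists and 0 when stitched. The share also in both resistant lists was 37.4% where 50% of a region had to be covered. It was 69.2% to 85.9% with 1 resistant list, and 41.7% to 48.8% for the peaks of 1 parental list, alternatives chosen after seeing the data, as were shares of counts in place of TPM (1.05-fold median difference between libraries against 1.06). The depth limits what can be said of genes with under 3 counts.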

Other observations

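Other abundant genes of parental Caki-1, outside the lists above, were chosen after their values were seen. AKR1B1, the aldose reductase that turns glucose into sorbitol, stood at 3215 and 3144 TPM. MT2A, a metal-binding metallothionein, stood at 2632 and 2680 TPM, while its relative MT1A stood at 87.9 and 97.8 TPM and MT1B and MT1H were silent. PDZK1IP1, a small membrane protein of the proximal tubule that is raised in carcinomas, stood at 2310.3 and 2219.9 TPM, against 2.03 and 2.52 TPM for its binding partner PDZK1. The calcium-binding proteins S100A6 (2270.2 and 2283 TPM) and S100A11 (2171 and 2317 TPM) were far above S100A4 (4.08 and 2.55 TPM), while S100A8 and S100A9, the pair of myeloid cells, were silent. LGALS1, a secreted galectin, stood at 1825 and 1876 TPM. Among 55 keratin symbols 10 were expressed and 33 silent, against 58.4% and 24.1% of all genes. KRT7 stood at 5.96 and 4.48 TPM. CLDN11, a claudin known from myelin and testis, stood at 116 and 115 TPM, second to CLDN1 among 23 claudin symbols. Of these claudins 9 were expressed and 8 silent, beside the same shares of all genes.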
